A study of Mus musculus with 4 samples.

Results

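The YAP and TAZ pathway was followed here through 10 genes: the coactivators Yap1 and Wwtr1, the TEAD factors Tead1, Tead3 and Tead4, the upstream regulators Lats2, Amotl2 and Ajuba, and the transcriptional targets Ankrd1 and Axl. They were chosen by name as known genes of the pathway, with earlier results of these data known. They are 10 of the 25814 genes listed for each library. All 10 are listed, 9 under exactly that name. The tenth, Lats2, is split over 2 rows and was taken by its Ensembl identifier. All 10 passed the filter on low counts, as did 12614 genes in all. No member differed between the genotypes past the adjusted p threshold of 0.05, which 1.27% of all genes tested passed. For 8 of the 10 the fold change and its whole interval lay between 0.695 and 1.39. Tead3 and Ankrd1 were the exceptions, with intervals that reached 1.83 and 4.19. Lats2, counted among the 8, rests almost wholly on exon reads that were not uniquely placed, and with its uniquely placed exon reads alone its log2 fold change was 0.42 ± 0.38 (SE).

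The data are poly(A) RNA-seq profiles of untreated keratinocytes (KCs) of 129/sv mice, grown from adult tail epidermis in serum-free medium with 0.06 mM Ca++. WT KCs (2 libraries) came from wildtype mice, littermates of the knockouts, and the KCs of the 2 libraries labelled Nfat5-/- from mice described as deficient in Nfat5 throughout the body. Nfat5 encodes a transcription factor of the osmotic stress response. The series describes 2 independent experiments for each genotype, so p-values rest on 2 libraries a group, or on 1 in a group where a library is left out. The knockout is not restricted to skin, and Nfat5-/- animals of this strain are small and hypernatremic.

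YAP (Yap1) and TAZ (Wwtr1) are transcriptional coactivators that do not bind DNA themselves and reach their genes through TEAD factors. The kinase LATS, which the Hippo kinase MST activates, phosphorylates both and keeps them out of the nucleus. Angiomotin proteins hold them at junctions and the actin skeleton, and LIM proteins of the Ajuba family bind and restrain LATS. In epidermis, YAP and TAZ are active in basal KCs and are known for their part in proliferation, adhesion and wound repair. Their activity is set largely by phosphorylation and location of the proteins, which RNA levels do not show.

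TEAD factors recognise a short core, GGAATG, which reads CATTCC on the other strand. The promoter windows of RefSeq (GRCm38.p6, 250 bases before to 50 bases after a gene's start, C57BL/6J reference) were searched for it on both strands. The table holds a window for 8 of the 10 members, with no entry for Tead1, Tead4 or Ccn2. Each of the 8 held the core in at least one window, as 10 of their 12 windows did, against 14.7% of all 32851 windows and 16.6% of all 27025 genes. The windows of Wwtr1 overlap and share a single match, and several of the 8 entered the list as known YAP and TAZ targets, so the share is a description of these genes only. Below are 5 of these windows, those of the members in the YAP/TAZ target signature and that of Tead3, whose genotype difference was the one with the lowest p-value. Lats2 has another window with no match, and Tead3 has 2 more windows, with no match and with 1 match at -182. The windows read 5′ to 3′ on the gene's own strand, with matches to the core in capitals.
Ankrd1, chr19:36119795-36120094, minus strand: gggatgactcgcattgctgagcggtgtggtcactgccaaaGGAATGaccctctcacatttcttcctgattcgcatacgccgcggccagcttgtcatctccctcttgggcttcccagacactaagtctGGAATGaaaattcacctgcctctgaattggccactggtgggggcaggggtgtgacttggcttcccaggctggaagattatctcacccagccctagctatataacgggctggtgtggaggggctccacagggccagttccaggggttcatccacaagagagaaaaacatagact
Axl, chr7:25788684-25788983, minus strand: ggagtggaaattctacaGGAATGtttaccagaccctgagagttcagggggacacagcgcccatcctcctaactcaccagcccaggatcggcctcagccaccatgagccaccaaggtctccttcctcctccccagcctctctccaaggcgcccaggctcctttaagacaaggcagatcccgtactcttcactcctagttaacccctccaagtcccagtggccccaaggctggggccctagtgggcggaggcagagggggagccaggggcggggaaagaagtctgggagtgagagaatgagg
Amotl2, chr9:102717554-102717853, plus strand: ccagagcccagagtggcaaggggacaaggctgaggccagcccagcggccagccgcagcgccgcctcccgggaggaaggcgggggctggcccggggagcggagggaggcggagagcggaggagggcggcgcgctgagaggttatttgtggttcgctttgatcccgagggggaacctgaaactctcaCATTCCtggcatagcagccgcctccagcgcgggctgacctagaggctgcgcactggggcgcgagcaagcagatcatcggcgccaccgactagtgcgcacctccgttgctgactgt
Lats2, chr14:57746074-57746373, minus strand: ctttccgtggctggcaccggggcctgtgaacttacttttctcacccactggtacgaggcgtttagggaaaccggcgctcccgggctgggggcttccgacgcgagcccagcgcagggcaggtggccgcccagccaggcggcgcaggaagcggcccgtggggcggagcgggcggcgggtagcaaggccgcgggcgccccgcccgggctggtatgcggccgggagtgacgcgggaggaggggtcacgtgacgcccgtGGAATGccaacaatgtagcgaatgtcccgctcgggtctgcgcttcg
Tead3, chr17:28350551-28350850, minus strand: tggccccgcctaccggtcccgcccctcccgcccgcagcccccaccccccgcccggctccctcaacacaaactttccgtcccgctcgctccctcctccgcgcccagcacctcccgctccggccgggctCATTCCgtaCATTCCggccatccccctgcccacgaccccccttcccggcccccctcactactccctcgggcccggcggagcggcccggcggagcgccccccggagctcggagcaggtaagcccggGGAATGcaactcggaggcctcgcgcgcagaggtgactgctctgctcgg
Counted from the start site, the first base of the match lay at -210 and -123 in Ankrd1, at -233 in Axl, at -65 in Amotl2 and at +5 in Lats2. Tead3 held 3 matches in this window, at -123, -114 and +3. Of the members not printed, Yap1 held the core at -141, Ajuba at -186 and -164, and Wwtr1 at -170 or -136, counted from the start site of each of its windows. A match shows only that these letters are present, not that a TEAD protein binds there.

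The libraries held 16219445 and 21612980 gene reads in WT and 23494436 and 18645422 in those labelled Nfat5-/-, so that 3 reads stood for 0.128 to 0.185 CPM (counts scaled to the library's total). Nfat5 itself did not tell the genotypes apart, with 408 and 929 reads in WT against 715 and 770 (log2 fold change 0.09 ± 0.26 SE, edgeR adjusted p = 0.913). Reads are totals over the whole gene, so a deletion of some exons would not be seen, and the groups go by their labels below, the second as the knockout-labelled libraries. The 8 KC markers (Krt5, Krt14 and others) summed to 11500 to 13500 RPKM per library, against 0.555 to 0.777 RPKM for 4 endothelial markers and at most 0.362 for 3 immune markers. Fibroblast markers (8 genes) summed to 0.653 and 0.539 RPKM in WT against 0.934 and 1.85 in the knockout-labelled libraries. Of these, 3 were testable, all 3 with a log2 fold change above 0, and none passed. Thy1 among them had 2 and 5 reads in WT against 19 and 29, and passed the filter on low counts only through the group where it was high. Suprabasal KC markers (5 genes) summed to 5.51 and 4.97 RPKM in WT and 7.31 and 10.5 in the knockout-labelled libraries. They did not move as one: 4 were higher in the latter, and Krt10 was lower (0.85 and 0.68 RPKM in WT against 0.55 and 0.52). Among the 5 smooth muscle markers, 4 were testable and all 4 passed the test as higher in the knockout-labelled libraries (summed RPKM 184 and 151 against 518 and 819). Of these Myh11, with 1 and 1 reads in WT against 22 and 40, passed the filter on low counts only through the group where it was high, so its call adds nothing to the other 3, Acta2, Tagln and Cnn1. In turn the 5 melanocyte markers summed to 7.02 and 6.56 against 1.52 and 2.61. Des, the remaining smooth muscle marker, had 1 read in WT replicate 1 and 0 elsewhere, and of the other lists 1 KC marker (Lamb3) and 1 melanocyte marker (Tyrp1) passed, both lower. The part of these shifts in the values below was not tested, and in bulk RNA fewer cells of a type and less RNA per cell cannot be told apart.

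Levels of the members spanned a wide range, given here as RPKM, which divides by gene length and so allows genes to be compared. By mean over the 4 libraries the order was Axl (258), Ajuba (89.4), Amotl2 (58.0), Yap1 (39.6), Wwtr1 (19.3), Tead1 (19.1), Tead4 (10.3), Tead3 (6.84), Lats2 (6.76) and Ankrd1 (0.453). The ranges over libraries overlapped between Wwtr1 and Tead1, between Tead4 and Tead3, and between Tead3 and Lats2. All other neighbours in this order had ranges that stood apart. A receptor tyrosine kinase gene, Axl, was thus the most abundant transcript of the set in each library, and the muscle ankyrin repeat gene Ankrd1 the least.

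**Figure D1:**
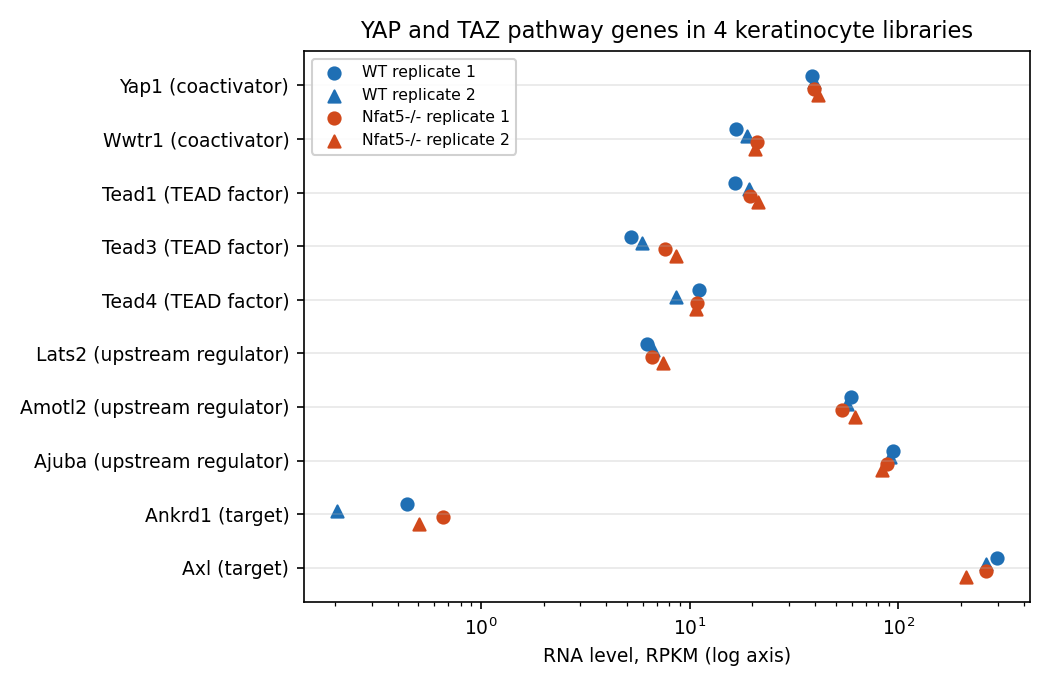
RNA level (RPKM, log axis) of the 10 members, 1 row a gene, with 1 point for each of the 4 libraries (blue, WT; orange, labelled Nfat5-/-; circles, replicate 1; triangles, replicate 2). The points of a gene lie close together except for Tead3, where both orange points (7.59 and 8.65) lie above both blue ones (5.22 and 5.92), and Ankrd1, which had 8 to 28 reads per library.

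Neither coactivator passed the test. Yap1 (ENSMUSG00000053110, chr9:7931999-8004596 on GRCm38) had 38.5 and 39.3 RPKM in WT against 39.3 and 41.4 in the knockout-labelled libraries. The groups touched in their ranges, and the log2 fold change was 0.07 ± 0.10 (SE, 95% interval -0.17 to 0.30, edgeR quasi-likelihood adjusted p = 0.810). On the linear scale the interval ran from 0.891 to 1.23. Wwtr1 (ENSMUSG00000027803, chr3:57455649-57575910) had 16.7 and 18.8 RPKM in WT against 21.0 and 20.7 in the knockout-labelled libraries, so that both of the latter were above both WT values. Its fold change was 1.18 (interval 0.997 to 1.39), with an unadjusted p of 0.0536 and an adjusted p of 0.351 by edgeR.

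TAZ and YAP share partners, so their transcripts were also set against each other within each library. The ratio of Wwtr1 to Yap1 RPKM was 0.434 and 0.477 in WT and 0.535 and 0.499 in the knockout-labelled libraries, or 0.455 ± 0.0305 against 0.517 ± 0.0249 (SD, n = 2 each). The groups did not overlap. An exact two-sided permutation test gave p = 0.333, the smallest that 2 against 2 libraries allow, so no ratio of this kind could pass 0.05. Yap1 remained the more abundant of the pair in all 4 libraries.

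Of the TEAD factors, which carry YAP and TAZ to DNA, Tead3 differed most. Tead3 (ENSMUSG00000002249, chr17:28331671-28350805) had 5.22 and 5.92 RPKM in WT against 7.59 and 8.65 in the knockout-labelled libraries (5.57 ± 0.492 against 8.12 ± 0.750, SD, n = 2 each). Replicates lay 1.13-fold and 1.14-fold apart within the groups, and the groups did not overlap. The fitted fold change was 1.45 (95% interval 1.15 to 1.83, log2 fold change 0.53, SE 0.14), with an edgeR unadjusted p of 0.00692 and an adjusted p of 0.148 over all genes tested. With no filter on low counts its adjusted p was 0.0164 in edgeR, in a fit that called 1137 genes, or 6.30% of those tested (4.01% higher), against 160. Tead3 was the only member with an unadjusted p under 0.05, where 14.6% of all genes tested had one.

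Tead1 and Tead4 differed by less. Tead1 (ENSMUSG00000055320, chr7:112679318-112906807) had 16.6 and 19.3 RPKM in WT against 19.4 and 21.3 in the knockout-labelled libraries, and its log2 fold change was 0.19 ± 0.12 (SE, edgeR adjusted p = 0.514). WT replicate 2 and replicate 1 of the knockout-labelled libraries were nearly level, although the groups did not overlap. For Tead4 (ENSMUSG00000030353, chr6:128224288-128300823) the levels were 11.1 and 8.63 RPKM in WT and 10.9 and 10.7 in the knockout-labelled libraries. Those of WT enclosed the others, and the log2 fold change was 0.10 ± 0.13 (SE, edgeR adjusted p = 0.761), with a sign that turned to -0.04 without WT replicate 2. Introns held 30.9% of the Tead4 reads, against 5.53% or less for every other member.

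Tead2, the family member outside the set, allowed the makeup of the whole family to be given. The summed TEAD level was 46.9 and 52.4 RPKM in WT and 55.2 and 54.9 in the knockout-labelled libraries. Tead1 made up 35.2% to 38.8% of it in the 4 libraries, Tead2 25.9% to 35.5%, and Tead4 16.5% to 23.7%, with overlapping groups for all 3. Tead3 made up 11.1% and 11.3% in WT against 13.8% and 15.7% in the knockout-labelled libraries. Its groups did not overlap, and the exact two-sided permutation test gave p = 0.333, again the smallest possible. Tead1 was the most abundant TEAD transcript in each library and Tead3 the least.

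**Figure D2:**
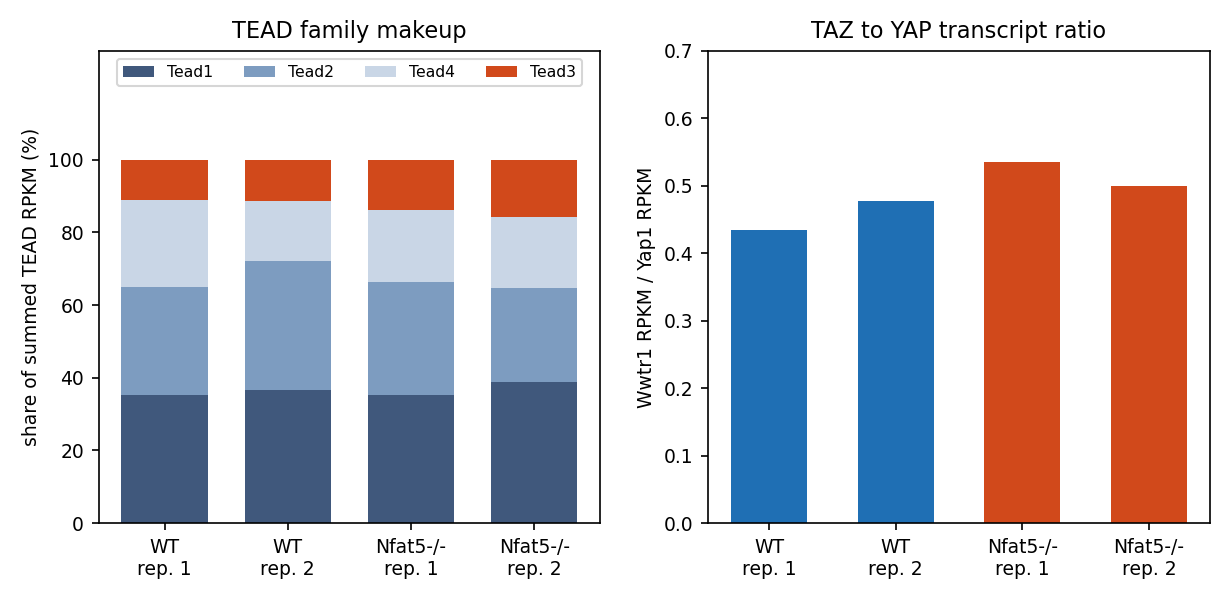
Left, share of each TEAD transcript in the summed TEAD RPKM of a library (stacked bars, in percent); right, ratio of Wwtr1 to Yap1 RPKM (bars), each for the 2 WT libraries and the 2 labelled Nfat5-/-, 1 bar a library with no error bars. Tead3 took 11.1% and 11.3% in WT and 13.8% and 15.7% in the others, and the ratio was 0.434 and 0.477 against 0.535 and 0.499.

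Upstream regulators among the members did not pass the test. Lats2 (ENSMUSG00000021959, chr14:57689662-57758388), a kinase that phosphorylates YAP and TAZ, had 6.26 and 6.67 RPKM in WT against 6.63 and 7.49 in the knockout-labelled libraries. The groups overlapped and the log2 fold change was 0.12 ± 0.12 (SE, 95% interval -0.16 to 0.40, edgeR adjusted p = 0.694). This value is uncertain in a way that the others are not. Only 2.33% of its exon reads were placed uniquely (16 to 25 per library), and a second gene model under the same name overlaps it. With uniquely placed exon reads alone its log2 fold change was 0.42.

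Amotl2 (ENSMUSG00000032531, chr9:102716672-102733418) encodes an angiomotin family protein that retains YAP and is itself a YAP target. It had 59.3 and 56.8 RPKM in WT against 53.7 and 62.3 in the knockout-labelled libraries. The latter enclosed the WT values, and the log2 fold change was 0.02 ± 0.12 (SE, interval -0.26 to 0.29, edgeR adjusted p = 0.961). Ajuba (ENSMUSG00000022178, chr14:54567472-54577558) had 94.4 and 91.3 RPKM in WT against 87.9 and 83.9 in the knockout-labelled libraries. Both of the latter were below both WT values, and the fold change of 0.935 (interval 0.800 to 1.09) had an edgeR adjusted p of 0.699.

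The 2 targets lay at opposite ends of the expression range. Ankrd1 (ENSMUSG00000024803, chr19:36111965-36119844), a reporter gene of YAP activity in many cell types, had 13 and 8 reads in WT and 28 and 18 in the knockout-labelled libraries, or 0.443 and 0.205 against 0.659 and 0.504 RPKM. The groups did not overlap, but the WT replicates lay 2.16-fold apart. The fitted fold change was 1.93 with an interval from 0.884 to 4.19 (edgeR unadjusted p = 0.0871, adjusted p = 0.419). With 1 library left out, its log2 fold change ran from 0.45 (without WT replicate 2) to 1.56 (without WT replicate 1), against 0.94 with all 4. Axl (ENSMUSG00000002602, chr7:25757273-25788705) had 17242 to 27312 reads per library, which leaves little counting error. It had 296 and 263 RPKM in WT against 264 and 210 in the knockout-labelled libraries, with ranges that overlapped by a narrow margin. The log2 fold change was -0.22 ± 0.13 (SE, interval -0.53 to 0.08, edgeR adjusted p = 0.485).

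**Figure D3:**
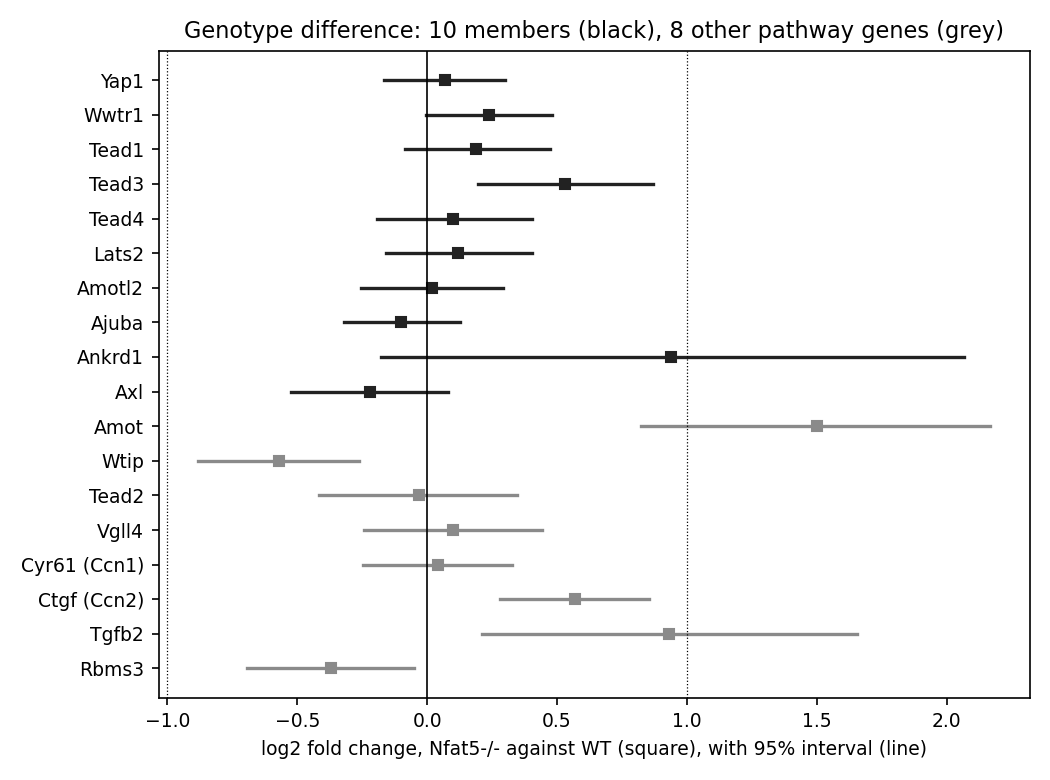
Fitted log2 fold change of the knockout-labelled libraries against WT (squares) with its 95% interval (lines) for the 10 members (black) and 8 other pathway genes (grey), n = 2 libraries a group. Dotted lines mark a log2 fold change of -1 and 1. Among the members the interval of Tead3 alone lies to one side of 0 (0.20 to 0.87), and that of Ankrd1 is the widest (-0.18 to 2.07).

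Counts over the members were set beside those over all genes tested. Of the 10, 0 passed the adjusted threshold of the edgeR test, where 1.27% of all genes tested did (160 of 12614, 0.943% higher and 0.325% lower). At an unadjusted p under 0.05 the count was 1 of 10 in edgeR, where 14.6% of all genes tested passed. At the adjusted threshold of DESeq2 it was 0 of 10, where 3.38% of all genes passed. The groups did not overlap for 5 of 10 members (4 higher and 1 lower in the knockout-labelled libraries), against a background of 46.5% of all genes tested (21.6% higher and 25.0% lower). The median log2 fold change was 0.11 with 8 members above 0, where the median over all genes was -0.01. The median size of the log2 fold change without its sign was 0.158, and over all genes it was 0.159. The highest value of a member lay in WT replicate 1 for 3 members, in replicate 1 of the knockout-labelled libraries for 2 and in their replicate 2 for 5. The lowest lay in WT for 5 (replicate 1) and 2 (replicate 2) members and in the knockout-labelled libraries for 1 and 2.

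**Figure D4:**
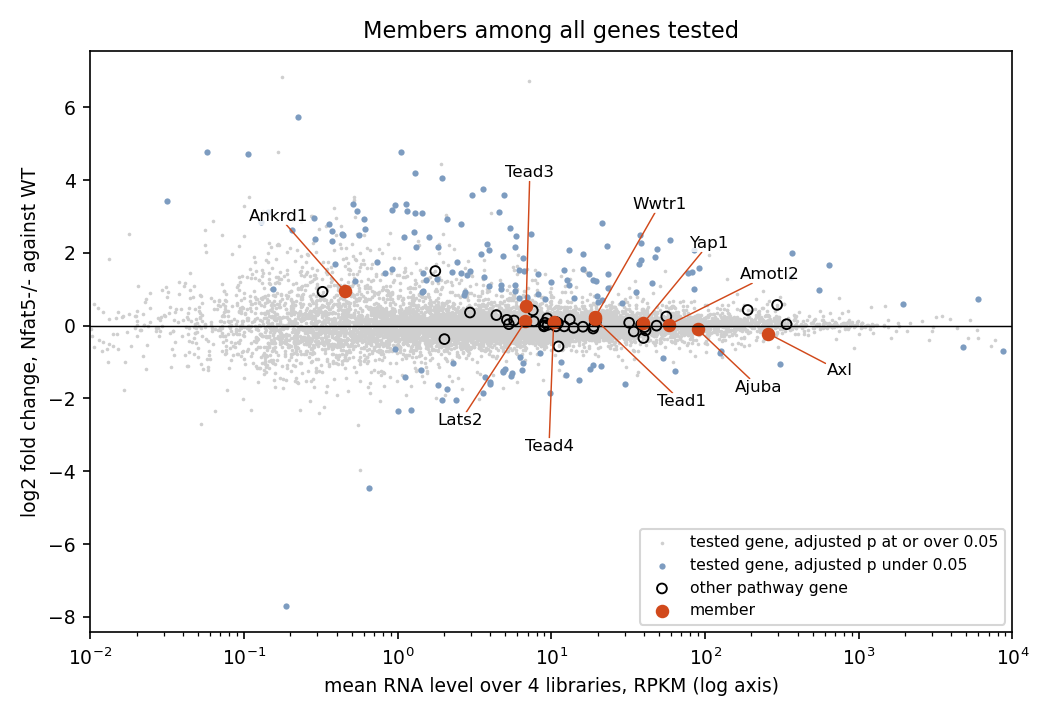
Log2 fold change of the knockout-labelled libraries against WT over the mean RNA level of the 4 libraries (RPKM, log axis) for the genes tested (grey, adjusted p at or over 0.05; blue, under 0.05), with the 10 members in orange and the other pathway genes as open circles. Tested genes whose mean RPKM was nil or below the lower end of the axis are not drawn. None of the 10 orange points and none of the open circles is among the 160 genes with an adjusted p under 0.05.

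The rest of the pathway was covered by 41 further genes, of which 37 were testable and 0 passed the adjusted threshold in edgeR (9 had an unadjusted p under 0.05, as 14.6% of all genes tested did). The 18 other regulators were all testable. They included the MST kinases Stk3 and Stk4, Lats1, Nf2 and the LIM genes Limd1 and Wtip, and their median log2 fold change was 0.03, with 3 of 18 at an unadjusted p under 0.05, against the same background of 14.6%. At the upper end was Amot, the founding angiomotin gene, with 0.985 and 0.850 RPKM in WT against 1.87 and 3.32 in the knockout-labelled libraries. The log2 fold change was 1.50 ± 0.29 (SE), the adjusted p was 0.0630 in edgeR, and DESeq2 called it (adjusted p = 0.000171). Without replicate 2 of the knockout-labelled libraries the edgeR adjusted p of Amot was 0.235, with a log2 fold change of 1.0. Its paralogs gave other values, with 0.02 for Amotl2 as above and 0.03 (SE 0.13, edgeR adjusted p = 0.949) for Amotl1, a gene picked for this comparison after its value was seen. At the lower end was Wtip, an Ajuba family LIM gene, with 14.3 and 12.5 RPKM in WT against 8.66 and 9.03. The log2 fold change of Wtip was -0.57 ± 0.13 (SE, edgeR adjusted p = 0.102).

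Of the 5 TEAD family members and Vestigial-like cofactors outside the set, 3 were testable and none passed. Vgll1 and Vgll2 had 0 reads in all 4 libraries. Among the others the log2 fold change ran from -0.03 (SE 0.16, edgeR adjusted p = 0.946) for Tead2 to 0.10 (SE 0.15, edgeR adjusted p = 0.811) for Vgll4, which competes with YAP for TEAD.

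The remaining 18 genes of the 22-gene YAP/TAZ target signature, which also holds Lats2, Amotl2, Ankrd1 and Axl, were read as a gauge of output. Of these 16 were testable, 0 passed the adjusted threshold in edgeR, 6 had an unadjusted p under 0.05 (4 higher and 2 lower in the knockout-labelled libraries, where 14.6% of all genes tested had one), and the median log2 fold change was 0.10. The most used pair of YAP targets, both matricellular proteins, gave different values. Ccn2, listed as Ctgf, had 247 and 231 RPKM in WT against 320 and 379 in the knockout-labelled libraries. Both of the latter were above both WT values, and edgeR gave a log2 fold change of 0.57 ± 0.12 (SE) at an adjusted p of 0.0867, and DESeq2 an adjusted p of 0.00216. Ccn1, listed as Cyr61, had 304 and 370 RPKM in WT against 359 and 324 in the knockout-labelled libraries. Its groups overlapped, and the log2 fold change was 0.04 ± 0.12 (SE, edgeR adjusted p = 0.919). Whether the 2 genes differed from each other in their response was not tested.

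The ends of this list were genes of low level. Tgfb2, a TGF-beta ligand, stood at 0.231 and 0.208 RPKM in WT against 0.463 and 0.393 (log2 fold change 0.93 ± 0.31 SE, edgeR adjusted p = 0.235). Rbms3, an RNA-binding protein gene, stood at 2.15 and 2.40 RPKM against 1.62 and 1.89 (log2 fold change -0.37 ± 0.14 SE, edgeR adjusted p = 0.281). The other genes with an unadjusted p under 0.05, named after their values were seen, were F3 (tissue factor, log2 fold change 0.43) and Ptpn14 (a phosphatase that binds YAP, 0.42) on the higher side and Nt5e (the ecto-nucleotidase CD73, -0.34) on the lower side. Their edgeR adjusted p-values were 0.180, 0.163 and 0.296. The smooth muscle markers that were higher in the same libraries included Acta2 (log2 fold change 2.00 ± 0.23 SE, edgeR adjusted p = 0.0192) and Tagln (2.11, SE 0.19, adjusted p = 0.00768), which also belong to the actin cytoskeleton, and their part in the values of Ccn2, Amot or Tead3 was not tested.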

How the data were processed

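Poly(A) RNA of the 4 KC libraries had been sequenced single-end by the authors and mapped and counted in CLC Genomics Workbench with default settings on GRCm38, with no strand setting given in the sources used here. The deposited tables give, per gene, whole read counts (total gene, exon, uniquely placed exon and intron reads) and RPKM, a level the authors computed per exon length and library. RPKM served for levels and ratios within a library. Total gene counts were tested with edgeR 4.0.16 (R 4.3.3; filterByExpr, TMM factors, quasi-likelihood test, genotype as the only term) and p-values were adjusted by Benjamini-Hochberg over 12614 genes, with a threshold of 0.05. SE and 95% intervals follow from the same fit, and ratios had exact permutation tests (scipy 1.17.1). The steps were tested on simulated counts. Of 198 genes changed 2-fold, 159 were recovered beside 19 false calls, and of 200 changed 4-fold, 191 beside 20. Smaller changes were not simulated, so the share of such changes that the test would find is not known. Alternatives used RLE factors, other filters (none, or at least 10 counts in every library), DESeq2 1.42.0, other count columns, limma 3.58.1 on log2(RPKM + 1) and log2(RPKM + 0.1) for genes of at least 0.5 RPKM, a replicate block and each library left out. Both rows named Lats2 were summed in an alternative chosen after seeing the data. Within each group the 2 replicate libraries differed from each other by more than sampling noise. The chi-square per degree of freedom was 17.3 for the WT pair and 18.4 for the pair labelled Nfat5-/-. Reads carry no molecular identifiers. The members and lists were chosen with earlier results of these data known. By rule the text names the 10 members, Ccn1, Ccn2, genes past the threshold and the ends of each list. F3, Ptpn14, Nt5e, Amotl1 and the single marker genes were named after their values were seen.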

Additional observations from a re-analysis of the deposited data

How the results depend on the processing

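Removing the filter on low counts changed most: 1 member was then called, higher (Tead3, log2 fold change 0.53, edgeR adjusted p = 0.0164, where 6.30% of all genes tested were called, 4.01% higher), with 2 other regulators (Amot, Wtip), 3 signature targets (Ctgf, F3, Ptpn14) and 1137 of all genes, against 160. DESeq2 called 426 genes (3.38% of those tested), among them 1 of 18 other regulators (Amot) and 1 of 16 testable signature targets (Ctgf). Uniquely placed exon reads called 218 genes, among them 1 of the 18 other regulators (Amot). No other setting called a member. Leaving out 1 library moved the count over all genes between 16 (without Nfat5-/- replicate 2) and 478 (without WT replicate 2), with 268 without WT replicate 1 and 31 without Nfat5-/- replicate 1, and the other regulators between 0 and 1 (Amot, without WT replicate 1 or Nfat5-/- replicate 1). The lone library of a group was then taken to vary like the other group. The sign of Amotl2 turned with limma (-0.00441 and -0.00454 with a pseudocount of 1 and 0.1), and its values ran from -0.11 to 0.138 with 1 library left out. Tead4 ran from -0.0411 (without WT replicate 2) to 0.271, and Ankrd1 from 0.449 (without WT replicate 2) to 1.56 (without WT replicate 1). None of the other members changed sign: Axl ran from -0.376 to -0.0816, Ajuba from -0.125 to -0.0616, Wwtr1 from 0.173 to 0.314, Tead1 from 0.101 to 0.301, Tead3 from 0.414 to 0.647, Lats2 from 0.00808 to 0.234 and Yap1 from 0.0157 to 0.119. Of the members' other values across alternatives, 94 kept direction and side of the threshold, 1 passed it (Tead3) and 2 changed sign (Amotl2). These include the fit with both Lats2 rows summed, which could hardly move any member but Lats2. With 1 library left out, 37 of 40 kept direction. Ankrd1 had no value with at least 10 counts in every library or with limma. The cause of these changes was not tested.

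Replicate numbers did not pair the libraries (correlation of deviations of same-numbered libraries -0.0977). With the replicate block, 132 genes and 0 members were called, and Tead3 had a log2 fold change of 0.534.

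Ankrd1 had 8 to 28 reads per library. Lats2 had a log2 fold change of 0.417 with uniquely placed exon reads and 0.0923 with both rows summed. Limits of 3 reads cover counting error only, and the intervals of fold changes only the spread among these 4 libraries. With 2 libraries a group, permutation of a ratio cannot reach 0.05.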
